A study of Homo sapiens with 4 samples.

Results

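The MCM helicase family was described by all 10 genes whose symbol in the deposited table is MCM2 to MCM10 or MCMBP, out of 23615 genes in the table. The rule uses names alone, and the family was picked with earlier results of these data known. K562 cells, an established human leukaemia line, were treated for 3 h with 5 µM clofarabine, added in DMSO to a final 0.005% DMSO, or were labelled as DMSO treated for 3 h. Each group had 2 RNA-seq libraries from total RNA, called C0 and C1 for clofarabine and V0 and V1 for DMSO. Clofarabine is a purine nucleoside drug that, once phosphorylated in the cell, blocks both the making of deoxynucleotides and DNA synthesis. The letters C and V are all the table gives as condition names. They were taken to stand for clofarabine and vehicle, and the opposite reading would turn every direction given here. Both groups are the same cell line at a single dose and a single time, and the labels do not name separate cultures. The p-values therefore reflect the spread between these libraries, estimated with information shared across genes, and that spread may be technical.

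MCM2, MCM3, MCM4, MCM5, MCM6 and MCM7 are related ATPases that form the ring-shaped motor of the replicative helicase. The ring is loaded on origins in G1 by the origin recognition complex with CDC6 and CDT1, and in S phase CDC45 and the GINS complex join it to make the active helicase. MCM10 helps to switch the loaded ring on, MCM8 and MCM9 form a separate helicase with roles in homologous recombination, and MCMBP binds newly made MCM subunits. In cycling cells, transcription of the ring subunits is known to be under E2F control and to rise towards S phase.

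The control regions of the members are shown for 4 of them because E2F is a known regulator of the ring subunits. The RefSeq promoter table (GRCh38.p14, from 250 bases before to 50 after each start) held an entry for 8 of the 10 members; MCM4 and MCM5 had none. The windows below are the 250 bases before the start, read 5′ to 3′ on the strand of the gene. Capitals mark E2F-like words, searched on both strands as TTTCCCGC, TTTCGCGC, TTTGGCGC and TTTGCCGC. The windows lie at chr2:135876444-135876693 (minus strand) for MCM6, chr6:52284743-52284992 (minus strand) for MCM3, chr7:100101398-100101647 (minus strand, the most upstream of 3 starts) for MCM7 and chr10:13161308-13161557 (plus strand) for MCM10. MCM10 is printed because it was the only member that passed the test between the groups, and MCM6, MCM3 and MCM7 as examples of members that hold such a word before the start. MCMBP also holds one there, at 1 of its 2 starts, and is not printed.
MCM6: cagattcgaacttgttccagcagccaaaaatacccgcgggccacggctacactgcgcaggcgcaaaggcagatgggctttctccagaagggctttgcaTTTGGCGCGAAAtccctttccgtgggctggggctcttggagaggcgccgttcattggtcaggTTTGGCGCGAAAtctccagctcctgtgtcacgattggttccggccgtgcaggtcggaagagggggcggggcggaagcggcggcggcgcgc
MCM3: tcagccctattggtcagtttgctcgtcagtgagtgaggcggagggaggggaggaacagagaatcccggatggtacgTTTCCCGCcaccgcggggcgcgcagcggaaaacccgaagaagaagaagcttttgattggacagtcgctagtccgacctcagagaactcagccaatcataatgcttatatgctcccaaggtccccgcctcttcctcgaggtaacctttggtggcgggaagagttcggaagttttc
MCM7: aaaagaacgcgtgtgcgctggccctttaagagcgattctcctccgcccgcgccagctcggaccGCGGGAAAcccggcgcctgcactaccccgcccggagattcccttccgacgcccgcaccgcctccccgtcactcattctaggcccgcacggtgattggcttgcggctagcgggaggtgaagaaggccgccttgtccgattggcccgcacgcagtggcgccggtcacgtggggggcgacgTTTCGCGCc
MCM10: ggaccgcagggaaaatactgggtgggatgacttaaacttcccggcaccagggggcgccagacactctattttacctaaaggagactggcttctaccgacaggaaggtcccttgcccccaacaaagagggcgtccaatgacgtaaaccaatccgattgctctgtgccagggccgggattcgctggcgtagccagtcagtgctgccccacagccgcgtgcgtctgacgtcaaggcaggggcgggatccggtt

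The MCM6 window holds the same 12-base run of capitals at 2 places, in each of which a forward and a reverse match overlap. In the whole tabled region, 6 of the 8 members held at least 1 E2F-like word, namely MCM2, MCM3, MCM6, MCM7, MCM8 and MCMBP. Of all 27305 genes in the promoter table, 3.99% held one. MCM7 had the word at 1 of 3 starts and MCMBP at 1 of 2. In MCM2 a forward and a reverse match overlapped just past the start, from 2 to 13 bases after it, and in MCM3 a further match crossed the start. The tabled regions of MCM9 and MCM10 did not contain these letters, which says nothing about the factor. The word CCAAT, on either strand, was in the regions of 6 of the 8 members (MCM3, MCM6, MCM7, MCM8, MCM9 and MCM10) and of 39.7% of all genes. The letters TTTGAA were in 0 of the 8 and in 18.2% of all genes. The E-box CACGTG was in the regions of MCM2, MCM7 and MCM8, and in those of 8.77% of all genes. A match is a description of the letters and not of a bound site.

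The libraries held between 8370550 and 23888755 estimated fragments, with V0 the smallest and C1 the largest. All 10 erythroid markers were detected, with a summed level of 48300 to 51900 FPKM (fragment counts adjusted for library size and transcript length) in DMSO and 46700 to 55300 in clofarabine. Nearly all of this erythroid sum was the globins HBE1, HBG2, HBG1 and HBZ. GATA1, KLF1 and HBZ were lower in FPKM in both clofarabine libraries than in both DMSO libraries, and the other erythroid markers overlapped. In fragment counts scaled to library size, 21.3% of all genes tested had both clofarabine libraries below both DMSO libraries. The 9 markers of lymphoid cells, monocytes, fibroblasts and hepatocytes summed to 33.1 to 35.1 FPKM in DMSO and 32.8 to 38.5 in clofarabine. MS4A1 was at 0 in all 4 libraries, and nearly all of that sum was CD3D, at 29.2 to 35.3 FPKM, while CD3E was at most 0.224. The part of these markers in the results was not tested.

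After 3 h of clofarabine, MCM10 was the only member of the family that passed the test, and it rose by 32.9% (95% interval 19.5% to 47.9%). The other 9 members stood between 5.39% and 18.2% above DMSO, and none of those differences passed the test. MCM10 stood at 106 CPM (fragment counts scaled to library size) in V0 and 95.8 in V1, and at 135 in C0 and 133 in C1. Both clofarabine libraries lay above both DMSO libraries. This was a log2 fold change of 0.41 (SE 0.074; edgeR quasi-likelihood test, Benjamini-Hochberg adjusted p = 0.00233), on 901 to 3072 fragments per library. Without V1, the lower of the DMSO libraries for MCM10, the log2 fold change was 0.33 and the call was lost (edgeR adjusted p = 0.147). On the log2(FPKM + 1) scale the log2 fold change was 0.39 and limma did not call it (adjusted p = 0.1).

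Of the 10 members, all passed the filter on low counts, 1 was called higher, 0 were called lower and 9 were not called. DESeq2 and limma-voom also called 1 higher and 0 lower, and 0 members stood lower at an unadjusted p under 0.05. Over all 11761 genes tested, 2.57% were called, 1.54% as higher and 1.03% as lower. The unadjusted p was under 0.05 for 5 members (MCM3, MCM6, MCM8, MCM9 and MCM10), all with higher levels in clofarabine, against 14.2% of all genes tested in either direction and 8.17% with a higher level. In all 10 members both clofarabine libraries lay above both DMSO libraries in CPM, which was so for 22% of all genes tested, while 21.3% had both clofarabine libraries below. With library size as the only scaling, 8 members kept that order, and MCM4 and MCM8 overlapped, against 16.3% of all genes. Log2 fold changes were above 0 in all 10, with a median of 0.14, where 50.6% of all tested genes were above 0 and their median was 0.00197. They stayed above 0 in all 10 under each of the 17 alternative settings run. The members share regulators and were measured in the same 4 libraries, so they are not 10 independent observations. In bulk RNA, a larger share of cells in a cell cycle phase and more of a transcript per cell cannot be told apart.

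**Figure D1:**
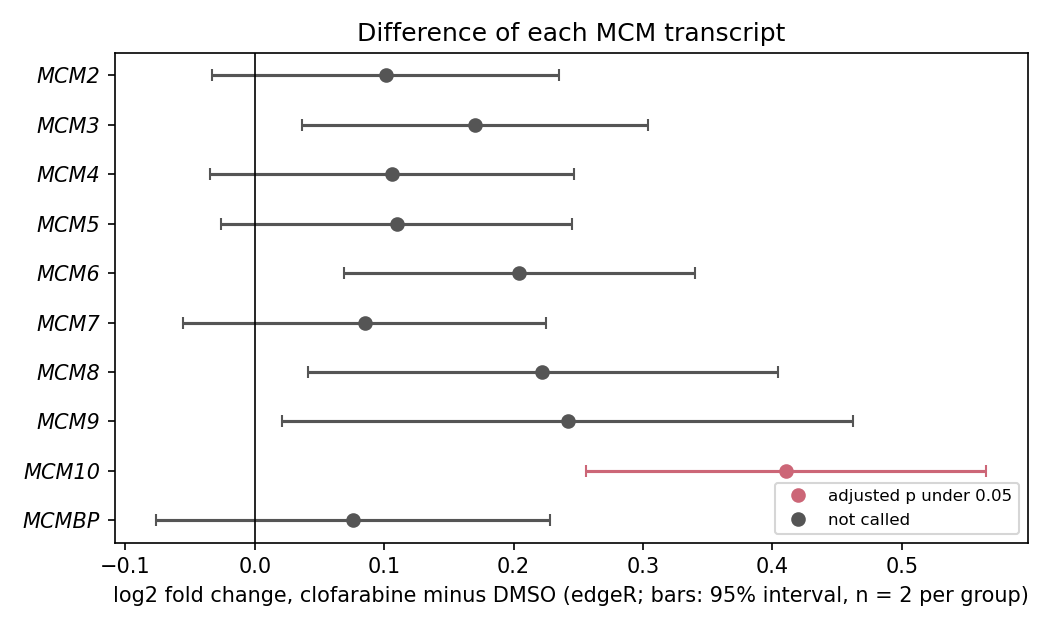
Points give the log2 fold change of each member (clofarabine minus DMSO, edgeR), with its 95% interval, n = 2 libraries per group. MCM10 stands at 0.41, and the other 9 members lie between 0.076 and 0.24 and were not called.

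Within the hexameric ring, MCM6 and MCM3 showed the largest differences. MCM6 stood at 346 CPM in V0, 327 in V1, 385 in C0 and 389.6 in C1. Its clofarabine libraries were 4.36 CPM apart and its DMSO libraries 19.9, and the groups did not overlap. A log2 fold change of 0.20 (95% interval 0.069 to 0.34) resulted, which was not called (edgeR adjusted p = 0.115). Without C0 it was called (edgeR adjusted p = 0.0277, log2 fold change 0.21), as it was with a length trend taken out of each library (edgeR adjusted p = 0.01). Without V1 its log2 fold change was 0.15.

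MCM3 stood at 305 CPM in V0, 293 in V1, 336 in C0 and 337 in C1. Again the groups were apart while the clofarabine libraries nearly coincided. MCM3 had a log2 fold change of 0.17 (95% interval 0.037 to 0.30, edgeR adjusted p = 0.206). Among the alternatives it was called only with a length trend taken out (edgeR adjusted p = 0.0442).

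MCM4 was measured at 656 CPM in V0, 672 in V1, 739 in C0 and 691 in C1. The clofarabine libraries differed from each other by 47.5 CPM, close to the difference of 51 CPM between the group means. With all libraries MCM4 had a log2 fold change of 0.11 (95% interval −0.035 to 0.25, edgeR adjusted p = 0.539), against 0.058 without C0 and 0.15 without C1.

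MCM2, MCM5 and MCM7 lay close together in their differences, and MCM4, at a log2 fold change of 0.11, lay among them. MCM2 stood at 255 CPM in V0, 263 in V1, 274 in C0 and 282 in C1 (log2 fold change 0.10, 95% interval −0.033 to 0.24, edgeR adjusted p = 0.538). MCM5 stood at 186 CPM in V0, 194 in V1, 204 in C0 and 206 in C1 (log2 fold change 0.11, 95% interval −0.026 to 0.25, edgeR adjusted p = 0.494). MCM7 stood at 733 CPM in V0, 765 in V1, 785 in C0 and 804 in C1 (log2 fold change 0.085, 95% interval −0.055 to 0.22, edgeR adjusted p = 0.649; 0.055 without V0). In MCM2, MCM5 and MCM7 the step from the higher DMSO library to the lower clofarabine library was between 0.037 and 0.073 on the log2 scale. The intervals leave room for a rise of up to 17.7%, 18.5% and 16.9% in that order, and at the other end for −2.25%, −1.77% and −3.76%.

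With all 4 libraries, MCM8 and MCM9, the partners of the recombination helicase, had larger differences than the ring subunits, with larger standard errors. This contrast was not tested. Without C0, MCM6 had a log2 fold change of 0.21, above MCM8 at 0.18 and MCM9 at 0.19. Without V1, MCM6 at 0.15 was above MCM8 at 0.093 and below MCM9 at 0.20. The order held without C1 and without V0. MCM8 stood at 73.6 CPM in V0, 62.2 in V1, 81.4 in C0 and 76.6 in C1. The DMSO libraries differed by 0.24 on the log2 scale, more than the gap between the group means of 0.22. MCM8 had a log2 fold change of 0.22 (95% interval 0.041 to 0.40, edgeR adjusted p = 0.227). It was 0.093 without V1 and 0.34 without V0.

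MCM9 was the least abundant member, with 271 to 817 fragments per library. It stood at 31.9 CPM in V0, 30.3 in V1, 38.4 in C0 and 35.4 in C1. Its log2 fold change was 0.24 (95% interval 0.021 to 0.46, edgeR adjusted p = 0.3), with a larger error than that of any other member. The length by which the authors' FPKM divides its fragments differed by up to 1.07 times between libraries. For the other 9 members that length was nearly constant.

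MCMBP, which binds MCM subunits, had the smallest difference of the 10 members. It stood at 96.6 CPM in V0, 98.2 in V1, 102 in C0 and 104 in C1. The groups did not overlap, yet the log2 fold change was 0.076 (95% interval −0.076 to 0.23, edgeR adjusted p = 0.723).

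**Figure D2:**
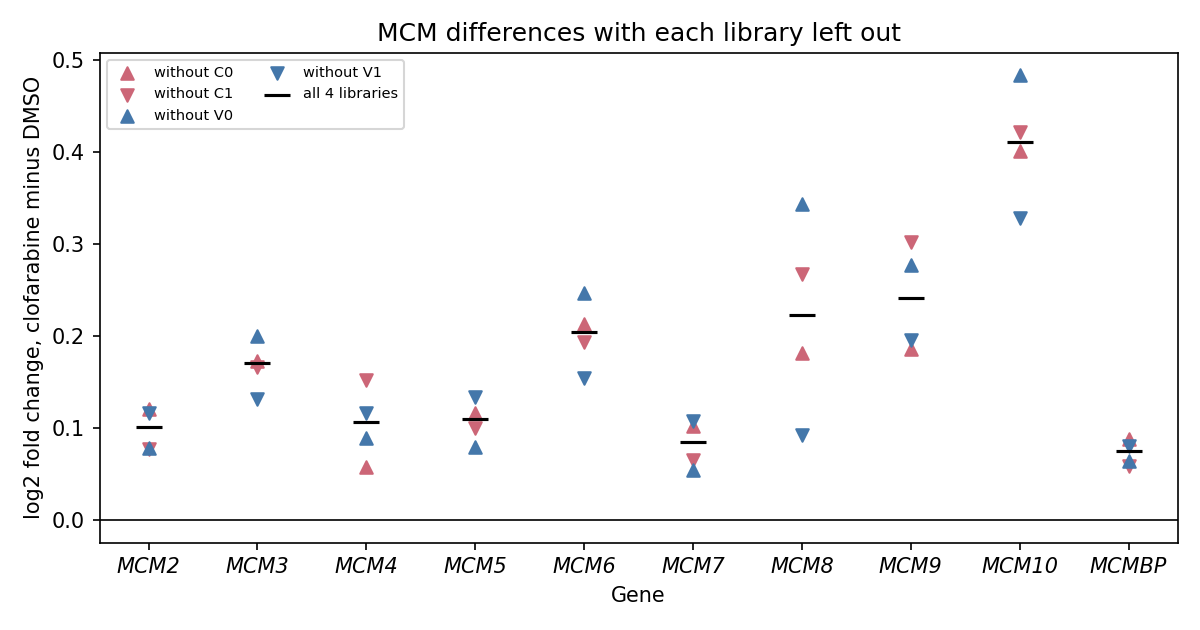
On the vertical axis, the log2 fold change of each member is shown with all 4 libraries (bars) and with each library left out (triangles). All points lie above 0, and MCM8 spreads widest, from 0.093 without V1 to 0.34 without V0.

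Levels were compared between genes per length, in the authors' FPKM. MCM7 was the highest member, at 273 and 284 FPKM in V0 and V1 and 292 and 298 in C0 and C1, above 97.2% of the tested genes by mean FPKM. MCM4 followed at 139 to 157 FPKM, then MCM3 at 94.8 to 109, MCM6 at 88.6 to 106, MCM5 at 77.4 to 85.4 and MCM2 at 75.8 to 83.5. A step down separated these ring subunits from MCM10 at 21.4 to 30.3 FPKM, MCMBP at 23.0 to 24.6, MCM8 at 17.3 to 22.7 and MCM9 at 7.32 to 9.65. MCM9 was above 45.9% of the tested genes. Over the 4 libraries the ranges of MCM3 and MCM6 overlapped, as did those of MCM5 and MCM2 and those of MCM10 and MCMBP. Within each of the 4 libraries, MCM3 was nevertheless above MCM6 and MCM5 above MCM2. MCM10 was above MCMBP in 3 of the 4 libraries and below it in V1, so that the order of this pair was not the same in every library.

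**Figure D3:**
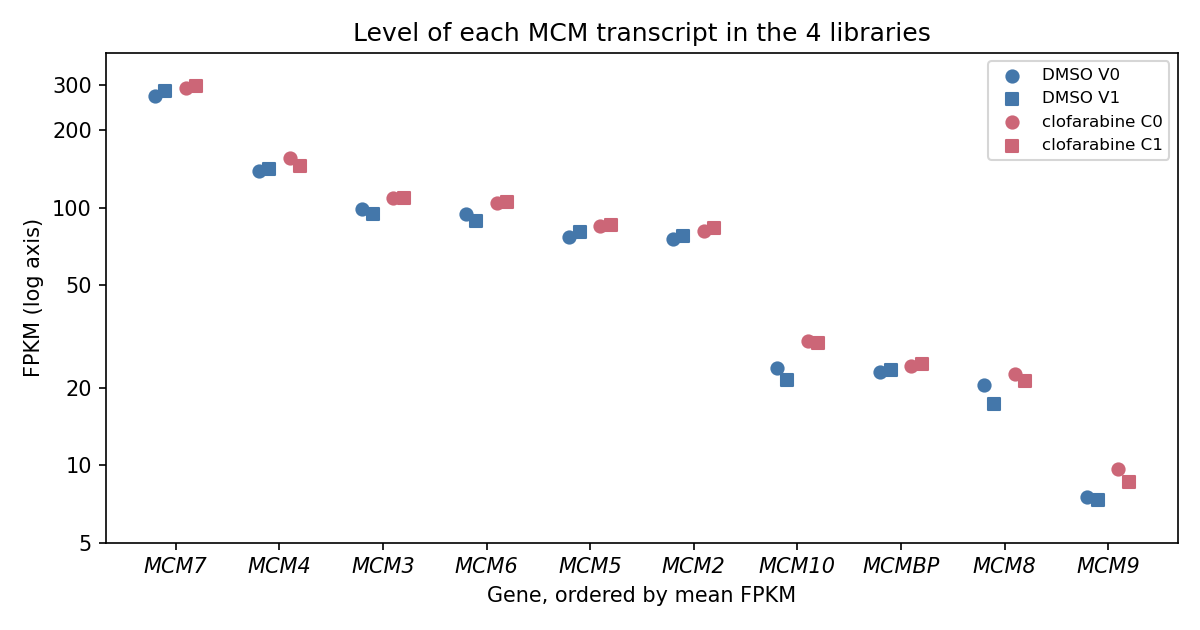
The FPKM of each member (log axis) is shown in the DMSO libraries V0 and V1 and the clofarabine libraries C0 and C1, with genes ordered by mean. The 6 ring subunits lie between 75.8 and 298 FPKM and the other 4 members between 7.32 and 30.3.

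The proteins of the ring are used in equal numbers, but their transcripts were not at equal levels. MCM7 made up 36.5% ± 0.69 (SD, n = 2) of the summed FPKM of the 6 ring subunits in DMSO and 35.6% ± 0.55 in clofarabine. The share of MCM4 was 18.4% ± 0.14 in DMSO and 18.3% ± 0.89 in clofarabine, and that of MCM2 10.1% ± 0.11 and 9.94% ± 0.19. MCM6 made up 12.4% and 11.5% in V0 and V1 and 12.6% and 12.8% in C0 and C1. Its mean share differed by 0.72 percentage points (0.27 without V1 and 1.2 without V0). The mean share of MCM7 differed by −0.85 (−0.37 without V1, −0.46 without C0 and −1.3 without V0). These differences are close to the spread between libraries, and an exact permutation test of 2 against 2 libraries cannot go below p = 0.333. The sum itself was 759 FPKM in V0, 768 in V1, 828.3 in C0 and 828.4 in C1, higher in both clofarabine libraries.

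**Figure D4:**
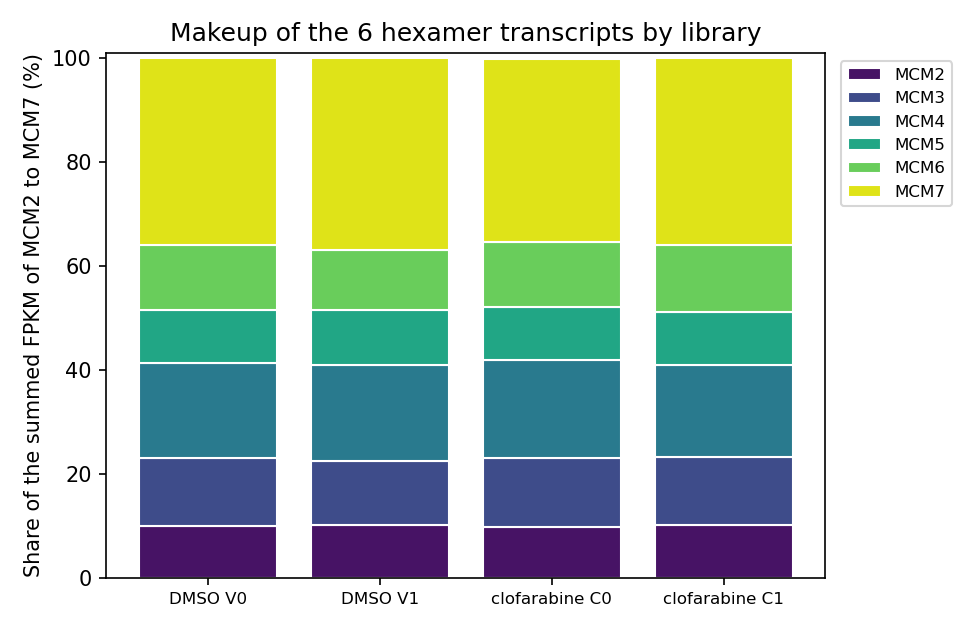
Bars show, for each library, the share (%) of MCM2 to MCM7 in their summed FPKM. MCM7 takes 35.2% to 37% in the 4 libraries and MCM4 17.6% to 18.9%.

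Relative to the ring subunits, MCM10 was higher in clofarabine. The FPKM of MCM10 was 18.8% and 16.8% of the mean over MCM2 to MCM7 in V0 and V1, and 21.9% and 21.5% in C0 and C1. The groups did not overlap in this ratio, which was computed because MCM10 was seen to differ most, and an exact permutation test cannot go below p = 0.333 for it. The ratio of MCM8 to MCM9 was 2.73 in V0, 2.36 in V1, 2.35 in C0 and 2.49 in C1, with overlapping groups.

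Other genes of the helicase pathway were taken from lists by role, which were chosen with earlier results of these data known. Among the 9 genes of origin loading, 3 rose, 0 fell and 6 were not called, with a median log2 fold change of 0.16. Of all genes tested, 1.54% were called higher and 1.03% lower. CDC6, which loads the ring with ORC, stood at 200.2 CPM in V0, 195 in V1, 304 in C0 and 302 in C1 (log2 fold change 0.62, edgeR adjusted p = 2.3e-06). ORC6, the smallest subunit of the origin recognition complex, stood at 46.0, 55.3, 76.2 and 73.4 CPM in the same order (log2 fold change 0.55, edgeR adjusted p = 0.000836). GMNN, which encodes geminin, the inhibitor of CDT1, rose by a log2 fold change of 0.33 (edgeR adjusted p = 0.00725), but was not called with V1 left out (adjusted p = 0.275). The differences of these 3 genes were larger than those of the ring subunits, and this contrast was not itself tested.

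Of 13 genes that activate the loaded ring, 1 rose, 0 fell and 12 were not called, where 1.54% of all genes tested rose and 1.03% fell. The 13 log2 fold changes ran from −0.30 to 0.30, with a median of 0.079 (0.023 without V1, 0.14 without V0, 0.043 with library size only). The rise was GINS2, a subunit of GINS (log2 fold change 0.30, edgeR adjusted p = 0.0354), whose call was lost without C1, V0 or V1 (adjusted p = 0.212, 0.0719 and 0.383). Without C0, 4 of the 13 rose. Of 12 genes that travel with the helicase at the fork, 1 rose and 0 fell, beside the same shares of all genes, with a median of 0.065. It was CLSPN, an adaptor of checkpoint signalling (log2 fold change 0.40, edgeR adjusted p = 0.00167), which was not called with V1 left out (adjusted p = 0.109).

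None of the 9 genes of helicase unloading passed the test in edgeR, in DESeq2 or in limma-voom, where 2.57% of all genes tested passed in edgeR. Of the 9, 1 had an unadjusted edgeR p under 0.05, against 14.2% of all genes, and the median log2 fold change was −0.0076. That median turned positive without C1 (0.011), without V0 (0.024) and with a length trend taken out (0.014). The smallest p was that of TRAIP, a ubiquitin ligase that triggers removal of the helicase, with a log2 fold change of −0.30 (edgeR adjusted p = 0.301; −0.17 without V1).

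Among 15 transcripts of the G1/S transition outside licensing, 11 rose, 0 fell and 4 were not called, with a median log2 fold change of 0.31. Over all genes tested, 1.54% were called higher and 1.03% lower. This list, too, was chosen with earlier results of these data known. CCNE2, which encodes cyclin E2, had a log2 fold change of 1.19 (edgeR adjusted p = 5.56e-08) and CDC25A, the phosphatase that turns on CDK2, 0.42 (adjusted p = 0.000836). RRM2, a ribonucleotide reductase subunit, had 0.40 (adjusted p = 0.000626) and SLBP, the histone mRNA binding protein, 0.36 (adjusted p = 0.00196). The list held 4 rises without V1 and 7 without V0. The medians of MCM2 to MCM7 and of this list, 0.11 and 0.31, were not tested against each other.

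**Figure D5:**
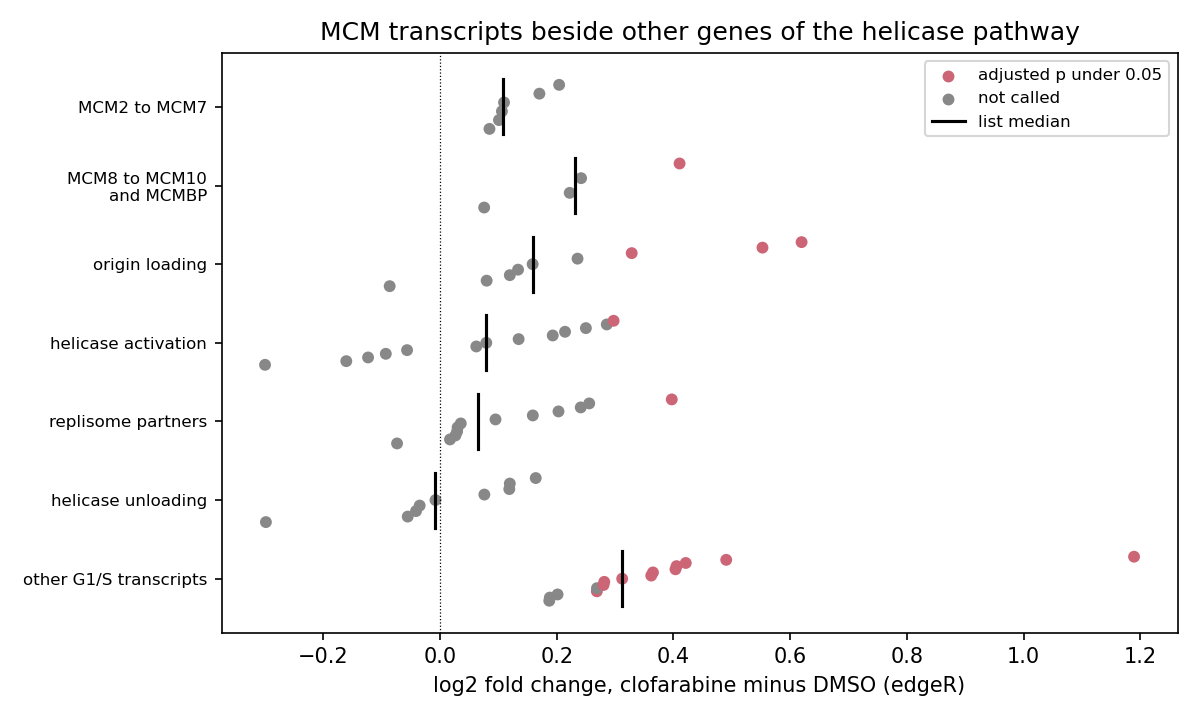
Each point is a gene's log2 fold change (clofarabine minus DMSO, edgeR), grouped by role, with the list median as a bar and called genes in red. The 6 ring subunits cluster between 0.085 and 0.20, and CCNE2 is the farthest point at 1.19.

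RefSeq starts on the opposite strand lay within 1000 bases of a start of MCM2, MCM7, MCM8 and MCM9. MCM4 and MCM5 had no promoter entry, so neighbours of these genes could not be searched. TPRA1, with its start 180 bases from that of MCM2, had a log2 fold change of −0.14 (edgeR adjusted p = 0.74). AP4M1, whose nearest start lies 40 bases from a start of MCM7, had 0.085 (edgeR adjusted p = 0.892; −0.061 without C0). TRMT6, 119 bases from MCM8, had 0.091 (edgeR adjusted p = 0.76; 0.047 without V1 and 0.0015 with libraries thinned to the smallest total). None of the 3 was called by edgeR, and LOC124901389, opposite MCM9, is not analysed here. Because the strand setting of the counting is not given, fragments in any overlap of such pairs cannot be assigned with certainty.

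Over the 4 libraries, the mean profile of MCM2 to MCM7 (log2 CPM centred on each gene's mean) was −0.069 in V0, −0.060 in V1, 0.063 in C0 and 0.066 in C1. Among 8133 eligible genes outside the family, the nearest profiles by Euclidean distance were those of AP1AR, BZW1, AEN, PCF11 and C1orf131, at distances of 0.011 to 0.014. Their log2 fold changes were between 0.12 and 0.14, values that follow from the choice by profile, and none was called by edgeR. With 4 libraries, such likeness is a description of these samples.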

How the data were processed

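RNA was measured in 2 clofarabine and 2 DMSO libraries of K562 cells. The submitters' processing notes name cutadapt 1.5, TopHat2 2.0.13, Cuffdiff 2.2.1 and the build hg19. Of the gene annotation and the strand setting, nothing is stated. Per the file headers, the deposited values are the authors' estimated counts (raw fragments per gene and library), scaled fragments (a signal that multiplies each library's counts by a constant) and FPKM. The members and all gene lists were chosen with earlier results of these data known.

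Estimated counts were rounded to whole numbers. Of 23615 genes, 11761 passed edgeR's filterByExpr (minimum count 10). Libraries were scaled by TMM (factors 0.968 to 1.02), and the groups were compared with edgeR 4.0.16 in R 4.3.3 by its quasi-likelihood test. The model had no term but group. Benjamini-Hochberg adjustment covered all genes tested, and genes under 0.05 were called. The estimated common coefficient of biological variation was 6.01%. SE is the log2 fold change over the square root of F. Libraries of a group differed beyond sampling noise (chi-square per degree of freedom 6.55 in clofarabine and 2.73 in DMSO), so none were combined. For C0 against V0 the value was 4.08. This measure depends on the depth of the libraries, so these values do not rank the pairs. Which library is which labelled replicate is not given.

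All 10 members are named, with up to 4 called genes per direction of each other list or else that of smallest p. Also named are every opposite-strand neighbour within 1000 bases of the 8 members with a promoter entry, and the 5 nearest profiles (mean CPM of at least 10, range at least 0.5 times that of the mean profile, pseudocount 0.5). A further short list of genes is not reported here. Alternatives were other scalings, filters, tools (DESeq2 1.42.0, limma 3.58.1), units, thresholds, left-out libraries, a replicate block, a length trend removed (loess, span 0.3) and libraries thinned to 8370550 fragments. Counts of members without overlap under other scalings were added after seeing the data. Promoters come from RefSeq, and no hg19 coordinates are given.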

Additional observations from a re-analysis of the deposited data

How the results depend on the processing

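The count of members called higher was 1 with all libraries and ranged from 0 to 2 as each library was left out, while the count called lower was 0 throughout. It was 0 without V1, 0 with limma on log2(FPKM + 1) and 0 on log2(FPKM + 0.1) (MCM10 adjusted p = 0.1 and 0.09), and 3 with a length trend taken out (MCM3, MCM6 and MCM10). With the table's replicate number as a replicate block it was 3 (MCM6, MCM8 and MCM10). However, the C0 minus C1 differences correlated at only 0.019 across genes with the V0 minus V1 differences. No label ties the replicate numbers to a shared culture. MCM10 was called in 14 of 17 alternatives, with log2 fold changes from 0.33 to 0.48 and adjusted p from 8.12e-08 to 0.147. On log2(FPKM + 1), 1 gene of origin loading, 0 at the fork and 2 of the G1/S list were called, and on log2(FPKM + 0.1) 2, 0 and 4. In the activation list 0 were called with DESeq2, upper-quartile scaling, the authors' scaled fragments, both limma fits of FPKM and libraries thinned to the smallest total, and 4 rose with a length trend taken out or with the block, which also called 1 as lower. Leaving out V1 gave 0 and leaving out C0 gave 4. In the fork list 2 rose with a length trend taken out and with the block, and 0 without V1. AP4M1 changed sign as libraries were left out (−0.061 to 0.245). Causes were not tested. The spread of a group left with 1 library was taken from the other.

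Over all genes, 181 rose and 121 fell (59.9% rises). The numbers were 110 and 99 with upper-quartile scaling (52.6% rises), 170 and 200 with library size only (45.9%), 298 and 180 with no filter, 96 and 75 with DESeq2, 19 and 37 on log2(FPKM + 1), 27 and 45 on log2(FPKM + 0.1), 283 and 199 without the length trend, 494 and 302 with the block, 447 and 186 without C0, 54 and 75 without V1, 58 and 70 at a threshold of 0.01, and 283 and 183 at 0.1. Shares of the ring subunits could not be recomputed from a stated length, because the table's length column is empty. The smallest library, with 8370550 fragments, gave MCM9 271 fragments.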
